A study of Mus musculus and Meriones unguiculatus with 4 samples.

Results

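Gene expression was compared between the 2 mouse libraries of a study of the enamel knot, 1 whose column name ends in PEK and 1 whose column name ends in SEK. The members are all named mouse genes measured in either library. A row was kept where its gene name occurred once in the table, was not a blank or a Gm or Rik name, and stood at 1 FPKM (fragments per kilobase of transcript, scaled to the mapped fragments of the library) or more in at least 1 library. This gave 12033 genes of 27632 loci. The mouse samples are labelled as wild type, embryonic day 13. Tissue labelled as epithelial cells of the enamel knot region was cut by laser microdissection from paraformaldehyde-fixed frozen sections of tooth germs, and a SMARTer kit was used for the libraries. The series also holds 2 gerbil libraries from embryonic day 15, 4 libraries in all.

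The labels do not explain PEK and SEK, and the column names were matched to the mouse group but not to a numbered sample. Both columns therefore share genotype, age and protocol as far as the labels say, and the sources used here do not say whether the endings name stages, regions or preparations. The 2 names also begin with different codes, which the labels do not explain. With 1 library of each kind no value has a replicate error, and no test was run. Every difference below describes these 2 libraries and cannot be told apart from the variation between any pair of preparations. Those sources also give neither the number of animals per library nor a marker used to find the knot.

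The enamel knot is a transient cluster of epithelial cells in the tooth germ that has left the cell cycle and secretes Shh, Fgf, Bmp and Wnt ligands. These signals act on the surrounding epithelium and on the dental mesenchyme, and the Fgf ligands in particular keep neighbouring cells dividing while the knot itself does not divide. Knot cells express Cdkn1a, the gene of the p21 inhibitor of cyclin-dependent kinases, and are later removed by apoptosis. The oral epithelium from which the tooth germ buds is a separate, stratifying tissue with its own keratins.

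The libraries resembled each other across most genes. The difference used throughout is log2(FPKM + 1) in SEK minus PEK. It is given centred on the median gene, and then corrected for transcript length as described below. Since 1 was added before taking the logarithm, it understates the change of low genes. Across the 12033 genes, Pearson's r of the log2 levels was 0.921 and Spearman's rho 0.916, with genes not being independent replicates. The centred difference was within 2-fold for 82.5% of them. The median gene stood at 14.1 FPKM in PEK and 12.0 FPKM in SEK. A gene is called higher or lower in SEK when both the centred and the length-corrected difference were past 4-fold in the same direction. By this rule 125 of 11922 genes with a known transcript length were higher in SEK (1.05%) and 64 were lower (0.537%). At 2-fold the counts were 565 higher (4.74%) and 543 lower (4.55%). The plot of both libraries shows the called genes as 2 wings beside a dense diagonal.

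**Figure D1:**
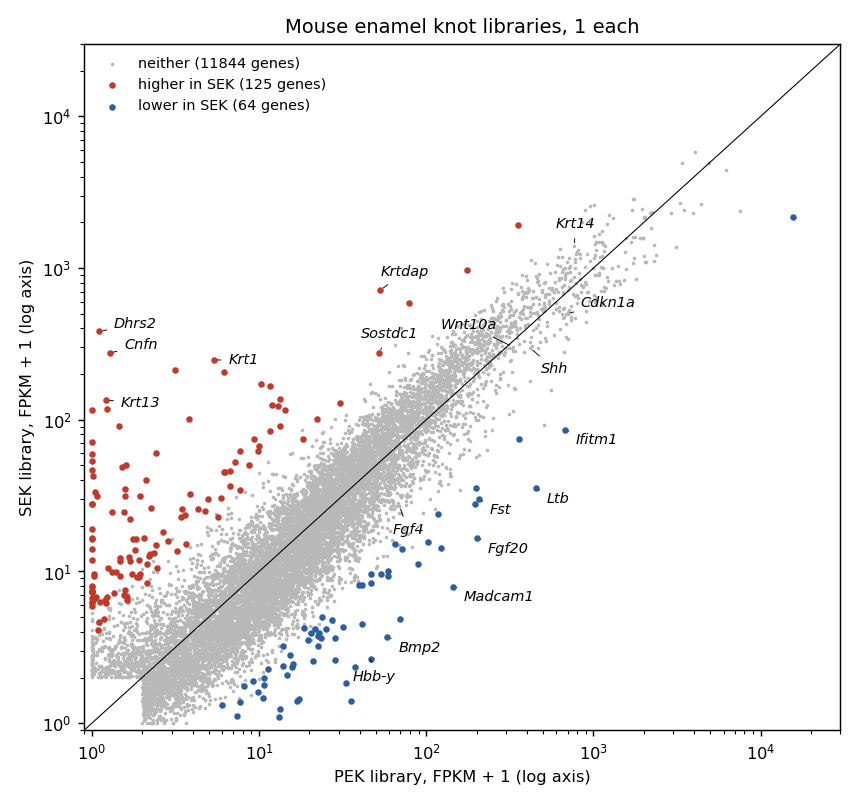
Level of each of the 12033 genes in the PEK library (horizontal, FPKM + 1, log axis) and the SEK library (vertical, FPKM + 1, log axis), 1 point per gene and 1 library per axis, with the line of equal levels; grey points include the 111 genes without a known length. The 125 genes called higher in SEK (red) include many near the left edge, where the PEK level is close to 0, while the 64 called lower (blue) include Fgf20, Bmp2, Fst, Ltb and Madcam1.

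The 6 marker genes did not move together. Shh, the hedgehog ligand secreted by the knot, was at 416 FPKM in PEK and 297 FPKM in SEK. Cdkn1a was at 688 and 498 FPKM. Both were thus abundant in each library, and their centred differences were -0.40 and -0.38. The ratio of Cdkn1a to Shh was 1.65 in PEK and 1.67 in SEK. Fgf4, a growth factor whose expression in the tooth is restricted to the knots, was at 68.0 FPKM in PEK and 26.2 FPKM in SEK, past 2-fold but not 4-fold (centred -1.26, corrected -1.37). Fgf20, another knot growth factor, was at 199.5 FPKM in PEK and 15.5 FPKM in SEK, 12.8-fold lower in SEK. Bmp2, a BMP ligand of the knot, was at 57.6 FPKM in PEK and 2.68 FPKM in SEK, 21.5-fold lower. Krt13, a keratin of stratified oral mucosa that is not a knot gene, stood at 0.216 FPKM in PEK and 134 FPKM in SEK. Set against Shh within a library, Krt13 had a ratio of 0.00052 in PEK and 0.450 in SEK, and Bmp2 had ratios of 0.138 and 0.00901.

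These genes lie, by the table's own loci on GRCm38, at chr5:28456810-28467256 on the minus strand (Shh, ENSMUSG00000002633), chr17:29090979-29100722 on the plus strand (Cdkn1a, ENSMUSG00000023067) and chr7:144847367-144865243 on the plus strand (Fgf4, ENSMUSG00000050917). Fgf20 (ENSMUSG00000031603) is at chr8:40279166-40308331 on the minus strand, Bmp2 (ENSMUSG00000027358) at chr2:133552159-133562885 on the plus strand and Krt13 (ENSMUSG00000044041) at chr11:100117327-100121566 on the minus strand. The Cdkn1a locus covers 99.9% of the annotated gene, and the other loci cover all of it.

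Knot signals were on the whole lower in SEK. Of the 21 listed genes, 20 were measured: 4 were called lower, 1 was called higher and 15 were not called, beside 0.537% and 1.05% of all genes. At 2-fold 11 were lower and 1 was higher. The median difference over the list was -1.18 centred and -1.32 length-corrected, against 0.00 for both over all genes. Msx2, the remaining listed gene, was split over 2 loci of the table that moved differently, 3.58 to 3.18 FPKM in one and 72.3 to 258 FPKM in the other, and was left out. The list was chosen with results of these data known, so its direction is a description and not independent evidence.

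Among the secreted ligands, the differences ranged from near 0 to past 4-fold. The Wnt ligand genes Wnt10a (327 FPKM in PEK, 302 FPKM in SEK) and Wnt6 (152 and 268 FPKM) were not called. Wnt3, a canonical Wnt ligand, was at 21.5 FPKM in PEK and 2.78 FPKM in SEK and was called lower. Wnt10b was at 74.2 and 27.9 FPKM, past 2-fold only. Bmp4, the ligand named in the title of the study, was at 178 FPKM in PEK and 122 FPKM in SEK (centred -0.45, corrected -0.86). Bmp7 was at 108 and 95.6 FPKM. The gap between Bmp2 and these other BMP ligands was therefore large: 21.5-fold for Bmp2, 1.46-fold for Bmp4 and 1.13-fold for Bmp7. Of the Fgf ligands, Fgf9 (63.6 and 51.1 FPKM) and Fgf3 (61.3 and 54.4 FPKM) were near each other in the 2 libraries. Fgf15 stood at 136 FPKM in PEK and 59.3 FPKM in SEK, which was past 2-fold.

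Receptors, mediators and antagonists of the list also differed. Edar, the receptor for ectodysplasin, was at 24.6 FPKM in PEK and 7.77 FPKM in SEK, and Lef1, a transcription factor of canonical Wnt signalling, was at 330.0 and 113 FPKM. Both passed 2-fold. Fst, which encodes follistatin, an antagonist of activin and BMP, was at 205 FPKM in PEK and 28.9 FPKM in SEK, 7.07-fold lower. Dkk4, a secreted Wnt antagonist of the knot, was at 35.9 and 7.82 FPKM, with a centred difference of -1.98, just short of the rule, and a corrected one of -2.54. Slit1, a secreted guidance factor found in knots, was at 8.93 and 0.959 FPKM (centred -2.25, corrected -1.83). The antagonist gene Sostdc1, which acts on BMP and Wnt signals and is known for its expression around the knot rather than in it, went the other way: 51.0 FPKM in PEK and 276 FPKM in SEK, 5.40-fold higher.

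**Figure D2:**
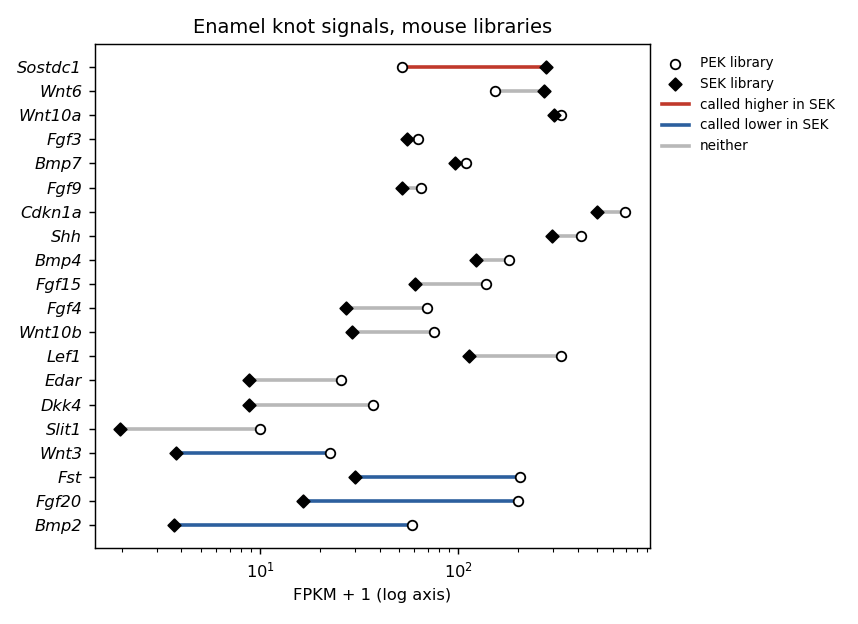
Level of the 20 measured knot signals (FPKM + 1, log axis) in the PEK library (open circle) and the SEK library (diamond), 1 library each, ordered by the centred difference; lines are blue for genes called lower, red for called higher and grey for neither. Cdkn1a and Shh are among the highest in both libraries, while Bmp2, Fgf20, Fst and Wnt3 lie furthest to the left in SEK relative to PEK.

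The pathways behind these ligands were measured with longer lists. More Wnt pathway genes were past the thresholds lower in SEK than higher. Of 48 measured Wnt genes (53 listed), 3 were called lower and 2 higher at 4-fold, and 15 lower and 3 higher at 2-fold. The shares over all genes were 0.537% and 1.05% at 4-fold, and 4.55% and 4.74% at 2-fold, so the count of higher genes at 2-fold was near the background. The median was -0.44 centred and -0.47 corrected. Axin2, a negative feedback target, was at 30.5 FPKM in PEK and 6.82 FPKM in SEK. Sp5, a transcription factor induced by Wnt, was at 205 and 57.2 FPKM, Nkd1, a feedback inhibitor, at 40.9 and 14.2 FPKM, and Rnf43, a ubiquitin ligase that removes Wnt receptors, at 36.2 and 10.95 FPKM. Rspo2, a secreted enhancer of Wnt signals, was called lower (17.4 and 3.21 FPKM), as was the ligand gene Wnt16 (12.1 and 0.103 FPKM). Dkk1, a secreted Wnt antagonist, was called higher in SEK, from 0.761 to 15.3 FPKM. Notum, which encodes an enzyme that inactivates Wnt ligands, was not called (227 and 178 FPKM), nor was Ctnnb1, which encodes beta-catenin (944 and 602 FPKM).

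The hedgehog target Gli1 differed more than the ligand gene Shh. None of the 14 measured hedgehog genes was called at 4-fold. At 2-fold 2 were lower and 1 higher, beside 4.55% and 4.74% of all genes. Gli1, a transcription factor that is itself a target, was at 36.8 FPKM in PEK and 11.5 FPKM in SEK, past 2-fold. Ptch1, also a target, was at 20.5 and 10.1 FPKM and was not called. Gas1, a co-receptor, was higher in SEK at 2-fold (1.89 and 7.30 FPKM), and Smo, the signal transducer, was at 42.9 and 41.5 FPKM. The list's median was -0.62 centred and -0.21 corrected.

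Of 19 measured Fgf pathway genes, Fgf20 alone was called lower at 4-fold and none was called higher, beside 0.537% and 1.05% of all genes. At 2-fold 5 were lower and 1 was higher, beside 4.55% and 4.74% of all genes. The lower ones included Dusp6, a phosphatase induced by Fgf signalling (309 FPKM in PEK, 108 FPKM in SEK), and Spred2, an inhibitor of the cascade (11.4 and 2.81 FPKM). Other feedback genes were not called: Etv4 was at 159 and 144 FPKM, Spry4 at 7.61 and 7.91 FPKM and Spry1 at 54.9 and 79.5 FPKM. The receptor genes Fgfr1 (127 and 97.3 FPKM) and Fgfr2 (70.2 and 61.6 FPKM) were not called either. The median was -0.23 centred and -0.04 corrected, and with a minimum of 10 FPKM the centred median was -0.67.

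Calls in the BMP pathway went both ways. Of 26 measured genes of the pathway, 3 were called higher, namely Sostdc1, Bambi and Bmp5, and 2 lower, Bmp2 and Fst. The shares over all genes were 1.05% higher and 0.537% lower. Bambi, a decoy receptor gene induced by BMP and TGF-beta, was at 29.3 FPKM in PEK and 128 FPKM in SEK. The ligand gene Bmp5 was at 0.188 and 3.83 FPKM. The target genes Id2 (98.7 and 251 FPKM) and Id4 (88.7 and 180 FPKM) and the antagonist gene Nog (1.07 and 6.10 FPKM) were past 2-fold. The targets Id1 (414 and 549 FPKM) and Msx1 (119 and 138 FPKM) were not called, though their FPKM was also the higher in SEK, and Id3 stood at 854 and 2019 FPKM with a corrected difference of 0.75. The median over the list was -0.28 centred and -0.08 corrected.

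Of 14 measured genes of ectodysplasin and NF-kB signalling, none was called at 4-fold. At 2-fold 3 were lower in SEK and none was higher, beside 4.55% and 4.74% of all genes. The 3 were Relb (37.7 FPKM in PEK, 8.13 FPKM in SEK) and Nfkb2 (22.6 and 5.46 FPKM), which encode subunits of the non-canonical pathway, and Edar. Among the genes with the largest differences, Ltb, which encodes lymphotoxin beta, a ligand of that pathway, was at 449 FPKM in PEK and 34.4 FPKM in SEK, 13.1-fold lower. Madcam1, an adhesion molecule of the immunoglobulin family, was at 143 and 6.95 FPKM, 20.6-fold lower. Rela, the canonical subunit, was at 45.4 and 43.6 FPKM, and the adaptor gene Edaradd at 9.26 and 10.1 FPKM.

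Outside the signalling lists, the genes lower in SEK were a mixed group. Of the 64, 55 stood at 10 FPKM or more in PEK and none was listed at 0 in SEK. The leading genes by size, among those at 50 FPKM or more in PEK, included Cdh13, a cadherin anchored by a lipid (68.9 FPKM in PEK, 3.85 FPKM in SEK), Ifitm1, an interferon-inducible membrane protein (671 and 84.9 FPKM), Uchl1, a ubiquitin hydrolase (196 and 26.8 FPKM), Cd74, the invariant chain of MHC class II (122 and 13.2 FPKM), and Thbs1, which encodes thrombospondin 1 (101 and 14.6 FPKM). Gad1, which encodes a glutamate decarboxylase, had the largest centred difference of all genes called lower (34.6 and 0.398 FPKM, centred -4.58). It was named after its values were seen. The Iroquois transcription factor genes Irx1 (30.6 and 3.31 FPKM) and Irx2 (64.3 and 14.2 FPKM), listed with dental epithelium, were both called lower. Cmss1 carried the highest FPKM of any member in PEK, 15641 against 2162 in SEK, but its locus covers 0.188% of the annotated gene, so the value may not measure the whole transcript.

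Genes of stratified oral epithelium held more genes called higher in SEK than any other list. Of 30 listed genes, 28 were measured, 12 were called higher in SEK, none was called lower and the others were not called, beside 1.05% of all genes. The median was 1.28 centred and 1.14 corrected. The summed level of the list was 768 FPKM in PEK and 2842 FPKM in SEK. Sprr3 was listed at 0 in PEK. Involucrin (Ivl) and Tgm3 were below the minimum, the former at 0 and 0.0203 FPKM, the latter at 0.0366 and 0.984 FPKM.

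Keratins of the suprabasal layers and cornified envelope genes made up much of the shift. Krt4, the partner of Krt13 in oral mucosa, was at 0.225 FPKM in PEK and 116 FPKM in SEK. Krt1, a keratin of differentiating epidermis and keratinized mucosa, was at 4.35 and 247 FPKM, and Krt10, its partner, at 63.7 and 309 FPKM, with a corrected difference of 1.96 that was just short of 4-fold. Krt6a was at 4.89 and 29.6 FPKM. The cornified envelope genes followed: Cnfn (cornifelin) was at 0.279 FPKM in PEK and 274 FPKM in SEK, Sprr1a at 2.81 and 101 FPKM, Sprr3 at 0 and 58.4 FPKM, Lor (loricrin) at 12.3 and 136 FPKM, and Tgm1, a transglutaminase that cross-links the envelope, at 0.627 and 5.77 FPKM. Krtdap, a secreted protein of differentiating keratinocytes, was at 52.1 and 714 FPKM, 13.7-fold higher. Where the PEK level was below 1 FPKM the ratio rests on a value close to 0, and since the depth behind it is unknown no ratio is given.

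Not all genes of the list took part. The simple-epithelium keratin genes Krt8 (22.1 FPKM in PEK, 18.2 FPKM in SEK) and Krt18 (152 and 112 FPKM), and the claudin gene Cldn6 (187 and 136 FPKM), were not called, and neither were Krt7, Krt19, Cldn4 and S100a14. The desmosomal cadherin genes Dsc2 (20.8 and 24.6 FPKM) and Dsg3 (1.80 and 2.41 FPKM) and the transcription factor genes Grhl3 (15.6 and 12.9 FPKM) and Klf5 (54.0 and 68.0 FPKM) were not called. Klf4, a regulator of terminal differentiation, was past 2-fold (6.62 and 17.8 FPKM).

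**Figure D3:**
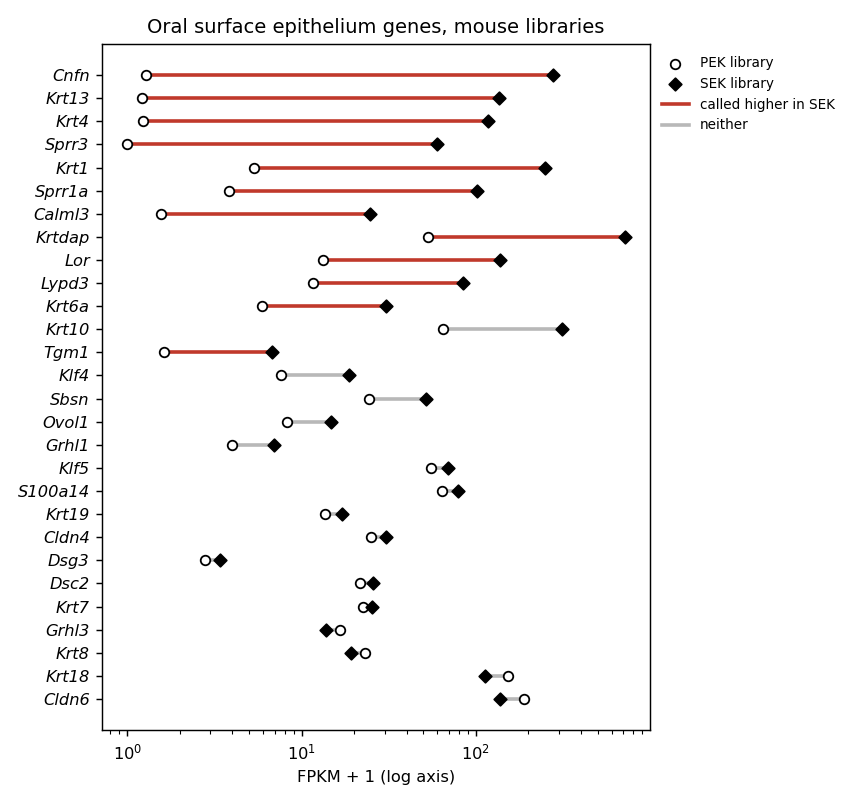
Level of the 28 measured genes of oral surface epithelium (FPKM + 1, log axis) in the PEK library (open circle) and the SEK library (diamond), 1 library each, ordered by the centred difference; red lines mark the 12 genes called higher in SEK. Cnfn, Krt13, Krt4 and Sprr3, at the top, lie near the left edge in PEK and at 58.4 FPKM or more in SEK, while Krt8, Krt18 and Cldn6 at the bottom lie close together.

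Several of the genes with the largest differences are known from stratified or mucosal epithelium without being in the list. Dhrs2, a dehydrogenase/reductase, was at 0.11 FPKM in PEK and 381 FPKM in SEK. Slpi, a secreted protease inhibitor of mucosal surfaces, was listed at 0 in PEK and stood at 115 FPKM in SEK, and Psca, a lipid-anchored surface protein of the Ly6 family, was listed at 0 and stood at 70.1 FPKM. Ly6d, of the same family and known from keratinocytes, was at 5.14 and 205 FPKM, 39.8-fold higher. Plac8 was at 2.14 and 213 FPKM and Crct1, a cysteine-rich gene of the epidermal cluster, at 0 and 52.6 FPKM. Lmo1, a LIM-only transcriptional cofactor, was at 9.31 and 170.3 FPKM. Of the 125 genes called higher, 70 were below 1 FPKM in PEK, 22 of them listed at 0, and 89 were at 10 FPKM or more in SEK.

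Some of the genes called higher belong to gene clusters, whose counts stand beside 1.05% of all genes called higher. The epidermal differentiation complex, a cluster of cornified envelope genes on chromosome 3 (chr3:92080271-93471980), held 23 members and 9 called higher: Crct1, Lce3a, Lce3c, Sprr1a, Sprr1b, Sprr3, Lor, Rptn and Crnn. Of these, Crct1, Lce3a, Lce3c, Sprr1b, Sprr3 and Rptn were listed at 0 in PEK. They passed the minimum of 1 FPKM only through SEK, which raises the count. The type II keratin cluster (chr15:101348315-102004342) held 11 members, of which Krt1, Krt4, Krt6a and Krt6b were called higher. The type I cluster (chr11:99279959-100269871) held 16, with Krt13, Krt15 and Krtap17-1 higher and Krt35 lower. A group of stefin genes, which encode cysteine protease inhibitors (chr16:36119946-36455392), held 3 members, and each was called higher: Csta1, BC117090 and Stfa3. All 3 stood at 0.0224 FPKM or less in PEK and passed the minimum only through SEK. The limits of the interval are the outer ends of Csta1 and Stfa3. The count of 3 in 3 was thus largely set by the choice of members and is no support. Around Psca and Ly6d on chromosome 15, 2 of 9 members were called higher, and in the Serpinb group on chromosome 1, 2 of 7. Several genes within these clusters are similar in sequence, so how the authors' counting assigned shared fragments may affect single members.

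Promoter sequences are shown for 3 of these genes and for Ltb, as examples of start sites from both ends of the comparison. A RefSeq promoter (GRCm38.p6) was found for 9228 of 12033 genes, and the 250 bases before the start were searched on both strands. The TATA-box letters TATAAA were present in 22.8% of the 92 promoters of genes called higher, 17.6% of the 34 of genes called lower and 6.05% of all. The letters TGANTCA, which cover the core site of AP-1 factors and also other middle letters, were present in 17.4%, in 0 of 34 and in 4.03%. At a share of 4.03%, few of 34 promoters would hold them, so the 0 is near the background. For CTTTGA, the core letters of Tcf and Lef sites, the shares were 13.0%, 17.6% and 10.5%, and for AACCNGTT, letters known from grainyhead factors, 3.26%, 0 and 1.60%. A match describes letters and does not show a bound factor. In the lines below, capitals mark TATAAA and TGANTCA, which overlap nowhere in them, and each sequence is the 250 bases before the start, 5′ to 3′ on the gene's own strand.
Dhrs2, chr14:55221757-55222006, plus strand: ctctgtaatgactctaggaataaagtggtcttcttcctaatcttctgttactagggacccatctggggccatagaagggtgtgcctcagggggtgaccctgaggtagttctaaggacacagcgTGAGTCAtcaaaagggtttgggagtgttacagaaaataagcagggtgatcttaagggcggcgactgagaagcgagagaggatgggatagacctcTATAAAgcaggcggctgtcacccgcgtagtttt
Sprr1a, chr3:92485882-92486131, minus strand: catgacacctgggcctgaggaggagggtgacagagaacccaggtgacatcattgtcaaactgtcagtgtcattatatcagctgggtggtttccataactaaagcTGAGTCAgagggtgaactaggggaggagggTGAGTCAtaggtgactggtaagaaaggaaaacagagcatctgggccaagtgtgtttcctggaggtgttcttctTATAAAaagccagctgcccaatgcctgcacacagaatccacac
Krt13, chr11:100121567-100121816, minus strand: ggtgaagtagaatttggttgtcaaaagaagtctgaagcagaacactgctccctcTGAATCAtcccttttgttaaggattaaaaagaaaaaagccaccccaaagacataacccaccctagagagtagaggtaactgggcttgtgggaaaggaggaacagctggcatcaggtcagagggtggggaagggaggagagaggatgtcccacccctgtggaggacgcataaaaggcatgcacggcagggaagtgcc
Ltb, chr17:35194257-35194506, plus strand: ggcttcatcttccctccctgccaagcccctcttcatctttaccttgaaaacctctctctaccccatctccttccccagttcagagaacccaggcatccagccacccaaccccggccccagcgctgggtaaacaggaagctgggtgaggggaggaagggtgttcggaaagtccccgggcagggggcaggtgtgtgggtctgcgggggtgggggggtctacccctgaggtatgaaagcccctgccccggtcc

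In Dhrs2 the letters TATAAA begin 33 bases before the start and TGANTCA 127 bases before it. Sprr1a has TATAAA at 43 bases and TGANTCA at 146 and 116 bases. Krt13 has TGANTCA at 196 bases, there as TGAATCA, and no TATAAA. Ltb, which was lower in SEK, has neither. The leading genes counted here have a promoter start close to that of the table's locus, a filter not used for the shares above. Of these, 5 of 9 higher genes held TATAAA and 5 held TGANTCA, while none of 5 lower genes held either.

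Genes of basal and dental epithelium went both ways. Of 25 measured, 1 was called higher and 2 lower, beside 1.05% and 0.537% of all genes. At 2-fold 3 were higher and 5 lower, beside 4.74% and 4.55%. The median was -0.02 centred and 0.12 corrected. The basal keratin genes Krt5 (714 FPKM in PEK, 1161 FPKM in SEK), Krt14 (765 and 1388 FPKM) and Krt17 (2163 and 2294 FPKM) were not called. Krt15, a keratin of basal cells in stratified epithelium, was the 1 called higher, from 10.7 to 167 FPKM. The transcription factor gene Dlx2 was at 297 and 280 FPKM, Tbx1 at 527 and 440 FPKM and Trp63, the master regulator of stratified epithelium, at 100.3 and 93.3 FPKM. These epithelial genes were thus present in both libraries, while Krt15, Irx1 and Irx2 were past 4-fold.

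Some markers of other tissues were also higher in SEK. Fewer cells of a type and less RNA per cell cannot be told apart in bulk samples such as these. Of 15 measured skeletal muscle genes (20 listed), 3 were called higher and none lower: Tnnc2 (12.0 FPKM in PEK, 121 FPKM in SEK), Tnnt3 (5.17 and 44.6 FPKM) and Myl1 (9.03 and 66.4 FPKM), each a part of the contractile filaments. Over all genes 1.05% were called higher and 0.537% lower. The summed level of the list was 114 and 484 FPKM, yet Myod1, a defining regulator of muscle, was lower in SEK (1.90 and 0.268 FPKM, past 2-fold), and Myf5 was at 0.0750 and 0.0404 FPKM. Of 9 bone and cartilage genes, 3 were called higher, beside the same 1.05%, and none lower. Ibsp, a bone matrix sialoprotein, was at 8.36 and 73.2 FPKM, Spp1 at 1.27 and 25.1 FPKM and Alpl, an alkaline phosphatase, at 6.21 and 51.3 FPKM. Runx2, a regulator of bone and of dental mesenchyme, was lower in SEK (20.1 and 4.10 FPKM, past 2-fold), and the cartilage gene Acan was at 0.0247 FPKM in PEK and listed at 0 in SEK. The bone list summed to 78.9 and 221 FPKM.

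Endothelial genes summed to 52.1 FPKM in PEK and 122 FPKM in SEK over 8 measured members. Most of that sum came from 1 gene, Egfl7, at 46.6 and 92.1 FPKM. All 8 had the higher FPKM in SEK, a count without length correction. Plvap was the 1 of 8 called higher (1.43 and 13.9 FPKM), beside 1.05% of all genes. The defining genes Cdh5 (0.386 and 1.05 FPKM) and Pecam1 (1.14 and 2.26 FPKM) were low in both. Neural genes summed to 41.8 and 44.4 FPKM over 11 members. Dental mesenchyme genes summed to 1299 and 1228 FPKM over 28 members. Of these, 1 was called higher and 2 lower, beside 1.05% and 0.537% of all genes. Col1a1, the collagen of bone and connective tissue, was at 21.2 and 99.5 FPKM. The receptor gene Pdgfrb (21.9 and 2.95 FPKM) and the transcription factor gene Lhx8 (45.4 and 7.36 FPKM) were lower. Prrx2 was at 226 and 216 FPKM. How far such tissue markers, or the oral surface genes, move the knot signals was not tested.

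Globin genes split by developmental type. The embryonic globin genes were lower in SEK: Hbb-y was at 45.4 FPKM in PEK and 1.65 FPKM in SEK, Hba-x at 14.8 and 1.34 FPKM, and Hbb-bh1 at 0.718 FPKM and listed at 0. The adult-type genes were higher: Hba-a1 was at 355 and 1915 FPKM, Hbb-bs at 175 and 976 FPKM, Hba-a2 at 72.0 and 229 FPKM and Hbb-bt at 41.4 and 99.99 FPKM. Of these, Hbb-y and Hba-x were called lower and Hba-a1 and Hbb-bs higher. Hba-a1 and Hba-a2 are nearly identical in sequence, as are Hbb-bs and Hbb-bt, so their separate values are uncertain. In the mouse embryo, embryonic globins belong to the first, yolk sac-derived red cells and adult globins to the red cells of the fetal liver. Of the leukocyte genes, Ptprc was at 0.0569 and 0.145 FPKM, while the macrophage gene Cd68 was at 7.46 and 7.56 FPKM.

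Listed proliferation genes were higher in SEK as a group, and none was called at 4-fold. Replication histone genes, a separate list, went the other way. Of 51 measured, 6 were past 2-fold lower and none higher, beside 4.55% and 4.74% of all genes. Of 43 measured proliferation genes, 36 had the higher FPKM in SEK, 12 were past 2-fold higher and none was past 2-fold lower, beside 4.74% of all genes. The median was 0.72 centred and 0.66 corrected. Aurka, a mitotic kinase, was at 22.7 FPKM in PEK and 81.4 FPKM in SEK, Cdk1 at 126 and 286 FPKM, Ccnb1 at 33.5 and 89.4 FPKM, Birc5 at 133 and 352 FPKM and Tyms, an enzyme of nucleotide synthesis, at 102 and 289 FPKM. Mki67 (14.2 and 8.70 FPKM), Top2a (86.2 and 81.7 FPKM) and Ccnd2 (1997 and 1197 FPKM) were not higher. Of 17 genes of cell cycle exit, none was called at 4-fold. At 2-fold 1 was lower, Ccng1 (22.1 and 8.68 FPKM), beside 4.55% of all genes. Beside Cdkn1a, the inhibitor gene Cdkn1c was at 276 and 200.2 FPKM and Cdkn1b at 8.92 and 2.84 FPKM.

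Of 22 measured genes that promote apoptosis, none was called at 4-fold. At 2-fold 3 were higher and 1 was lower, beside 4.74% and 4.55% of all genes. The median was 0.04 centred and -0.03 corrected. Perp, a p53 target that also builds desmosomes in stratified epithelium, was at 107 FPKM in PEK and 358 FPKM in SEK. Cycs, which encodes cytochrome c, was at 221 and 528 FPKM. Bax, which permeabilizes the mitochondrial membrane, was at 374 and 519 FPKM and Trp53 at 202 and 144 FPKM. Among 12 genes that oppose apoptosis, 1 was higher and 1 lower at 2-fold, Birc5 and Birc3. Both lists were thus centred near 0.

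Genes of glycolysis and the response to low oxygen were lower in SEK. Of 23 measured, 21 had the lower FPKM in SEK, 8 were past 2-fold lower and none past 2-fold higher, beside 4.55% of all genes. The median was -0.68 centred and -0.95 corrected. Ndrg1, a hypoxia-induced gene, was the 1 of 23 called at 4-fold (38.6 FPKM in PEK, 7.14 FPKM in SEK), beside 0.537% of all genes called lower. Vegfa, the endothelial growth factor, was at 95.0 and 23.1 FPKM, Pdk1, a kinase that limits entry of pyruvate into mitochondria, at 56.9 and 11.6 FPKM, Bnip3 at 224 and 83.8 FPKM and the glucose transporter gene Slc2a1 at 129.6 and 48.1 FPKM. The most abundant glycolytic genes differed little: Ldha was at 1566 and 1575 FPKM and Pkm at 1535 and 1283 FPKM.

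**Figure D4:**
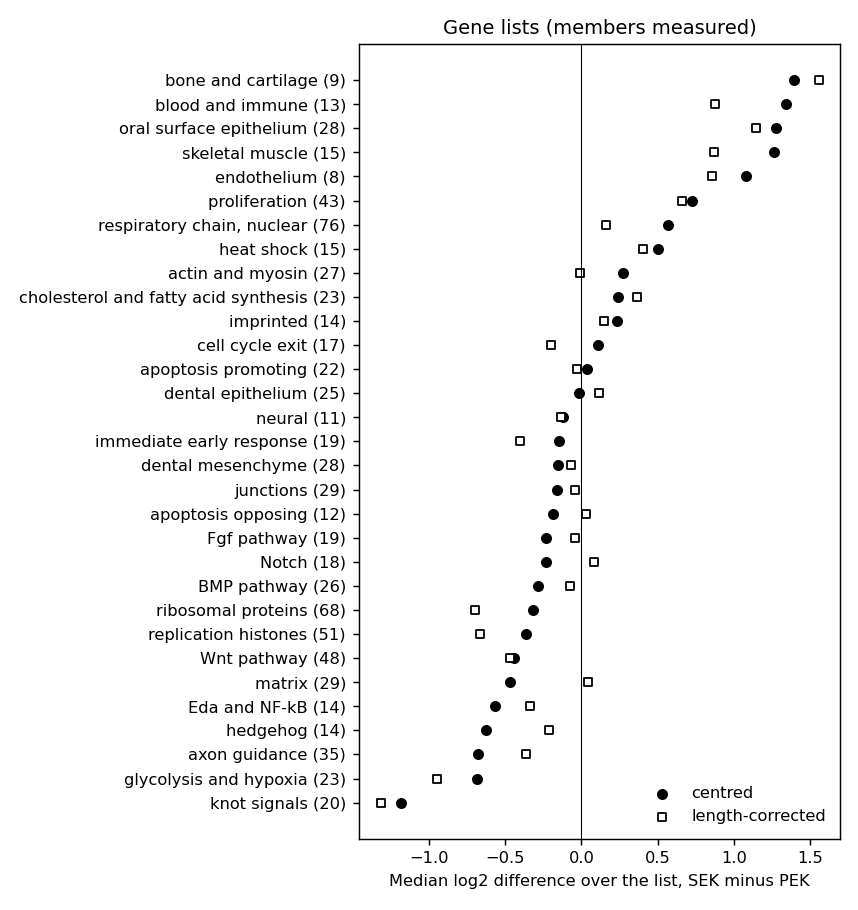
Median log2 difference between the SEK and PEK libraries over each gene list with at least 8 measured members (horizontal, log2), centred on the median gene (filled circle) and after the length correction (open square), 1 library each; the number of measured members is in parentheses. Lists of oral surface, muscle, blood and bone genes lie on the right, and knot signals lie furthest to the left, at -1.18 and -1.32.

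The difference between the libraries depended on transcript length, which is why a call needed the length-corrected value as well. Spearman's rho between the centred difference and length was -0.454 across 11922 genes, given as a description. In the shortest 1193 genes (204 to 1335 bases) the median centred difference was 0.48, and in the longest 1192 (7204 bases or more) it was -0.59. After the running median along length was subtracted, rho was 0.039. A further 43 genes of known length were past 4-fold higher and 31 lower on the centred scale alone. Genes called higher had a median length of 1654 bases and genes called lower 2602.5 bases, against 3297.5 bases for all genes. Called genes of the shortest bin numbered 43 higher and 10 lower, and those of the longest bin 3 higher and 2 lower. Short transcripts thus remained more frequent among genes called higher. Among the knot and oral surface genes, Krt10, Dkk4 and Slit1 were past 4-fold on 1 scale only.

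**Figure D5:**
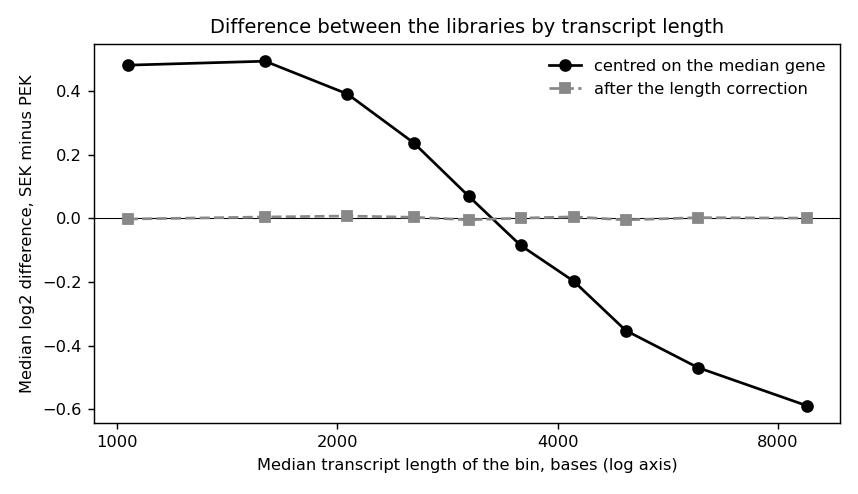
Median log2 difference between the SEK and PEK libraries (vertical) in 10 bins of equal gene number along transcript length (horizontal, bases, log axis), for 11922 genes of 1 library each, centred on the median gene (circles) and after the length correction (squares). The centred medians run from 0.48 in the shortest bin to -0.59 in the longest, and the corrected medians lie near 0.

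The gerbil libraries, labelled as the same region, were set beside the mouse libraries only to show how far another pair lay apart. Their values are TPM, which scale each library to the same sum over transcripts. Their column names hold the codes E21 and E23, which the labels do not explain either. On the centred scale without a length correction, 2.2% of the 12033 mouse genes were past 4-fold in either direction (1.4% higher in SEK, 0.798% lower), against 0.324% of 9263 gerbil genes (0.27% higher in E23, 0.054% lower). The difference between these shares was not tested, since species, unit and table differ. In gerbil, Krt13 was listed at 0 in E21 and stood at 46.6 TPM in E23, and Krt4 was listed at 0 and stood at 35.8 TPM. Shh was at 127.7 and 139.5 TPM, Bmp2 at 5.11 and 1.46 TPM and Dkk4 at 5.97 and 1.05 TPM. Fgf20 was at 0.750 TPM in E21 and listed at 0 in E23. Other genes called in mouse did not follow: Fst was at 4.42 and 5.84 TPM, Cdh13 at 0.930 and 1.83 TPM and Krt1 at 1.12 and 0.730 TPM, and Crct1 was listed at 0 in both.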

How the data were processed

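RNA was measured in 2 mouse libraries, 1 per column, and 2 gerbil libraries. The authors deposited mouse FPKM per locus and gerbil TPM per gene. Per the submitters' processing notes, the tools were STAR 2.7.1a, RSEM 1.3.1 and cutadapt 2.8 and the builds GRCm38 and mm10; no source used here says which step made which table, or whether strand was used. How deeply the mouse libraries were sequenced is unknown: low FPKM values showed no steps of whole reads. Of 27632 mouse loci, 1010 named rows share 232 names and were left out, and the 64 rows above 1000000 FPKM (63 unnamed, median span 75.5 bases) were dropped. Of the 19495 usable rows, 7462 were below 1 FPKM in both libraries. Just inside that minimum were Adad1 (1.00 FPKM in PEK) and Mlana (1.00 FPKM in SEK), and just outside it Prrt1 (0.999 FPKM in PEK) and Ckmt2 (0.997 FPKM in SEK). In the gerbil table, 4 other columns of single samples were not used.

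Differences are log2(FPKM + 1), SEK minus PEK, centred on the median gene. For the length correction, the running median along transcript length (exon union, GENCODE M21 basic) in 40 bins was subtracted; 111 genes had no length. A call needed both values past 4-fold. Python 3.11.15, pandas 2.3.3, numpy 2.4.6 and scipy 1.17.1 were used, and the procedure was tested on simulated data. The simulated levels were all high and the planted differences large. That check therefore says nothing about calls on low values. No significance test was run, because each kind has 1 library. The members and the 34 gene lists were chosen with earlier results of these data known. Named by rule were the given markers, all knot signals, the 2 leading called genes per list and direction at 10 FPKM or more, or its 2 most abundant genes if it had no call, its 2 least changed among the abundant, the 15 leading called genes per direction at 50 FPKM or more and the 5 highest rows per library. Other genes were named after their values were seen. Alternatives covered scaling, centring, length, GC content, pseudocount, filter and fold. A few genes covered by this rule are left out of the text.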

Additional observations from a re-analysis of the deposited data

How the results depend on the processing

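The counts of 125 genes higher and 64 lower in SEK moved with the fold asked for and with the number added before the logarithm. With 0.1 FPKM added they were 299 and 200, and with 5 FPKM added 50 and 26. At 2-fold they were 565 and 543. With a minimum of 10 FPKM, 83 genes were higher. Without centring and length correction, 115 were lower. Under the other settings, including rescaling and removal of GC content, which was taken from the longest transcript as no genome was given, both counts stayed within 1.5 times. Rescaling each library to the same sum put the median gene at -0.21. Higher genes made up 66.1% of calls and 57.9% to 66.3% under the scalings and corrections tried. No gene was called in the opposite direction under any of the 11 settings, and none of the 154 named genes changed sign as a called gene. A reversal would need a gene to pass from beyond the threshold one way to beyond it the other way. The settings shift values too little for that, so the absence of reversals is no support for the calls. With 5 FPKM added, 11 named genes lost their call: Dkk1, Hba-x, Irx2, Lhx8, Ndrg1, Pdgfrb, Plvap, Spp1, Tnnt3, Wnt16 and Wnt3. Bambi lost it when rescaled and Pdgfrb with the minimum of 10 FPKM. Dkk4 or Slit1 was called lower under several settings. The median of the neural list moved from -0.12 to 1.20 with that minimum, which leaves few of its genes. The same minimum moved the centred medians of the hedgehog list from -0.62 to -1.02, of the Fgf list from -0.23 to -0.67, of the Wnt list from -0.44 to -0.72 and of the Eda and NF-kB list from -0.57 to -1.06, all in the same direction. The gerbil share moved from 0.324% to 1.61% with 0.1 TPM added and 0.0432% with 5 TPM added, both chosen after seeing the data. Leaving out loci that cover under 80% of their gene, also chosen after seeing the data, left 122 and 64. No paired analysis was possible because the columns carry no replicate number and each kind is 1 library. For the same reason no replicate could be left out. The unknown depth limits every value near 0, and 70 of the genes called higher were below 1 FPKM in PEK.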

Other observations

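Some further gene groups are given as values. Ribosomal protein genes were lower in SEK by a modest amount that the length correction made larger: over 68 measured genes the median was -0.32 centred and -0.70 corrected, and 58 had the lower FPKM in SEK. Such counts of the higher or lower FPKM are uncorrected, and over all genes the median uncentred difference was -0.09. Rpl36 was at 3135 FPKM in PEK and 1372 FPKM in SEK. A further 14 listed ribosomal genes were split over several loci and were left out. Nuclear genes of the respiratory chain had a median of 0.57 centred and 0.16 corrected over 76 genes. Without length correction 72 of them had the higher FPKM in SEK. Cox8b, a muscle form of a cytochrome oxidase subunit, was the 1 of 76 called higher (0.310 and 8.98 FPKM). That count is near the 1.05% of all genes. Cox6a2, another muscle form, was at 2.19 and 9.88 FPKM. For replication histone genes the median was -0.36 centred and -0.66 corrected over 51 genes.

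Genes of sterol and fatty acid synthesis included none called at 2-fold among 23 measured, beside 4.74% higher and 4.55% lower of all genes. Of 19 immediate early genes, 5 were past 2-fold lower in SEK and none higher, beside 4.55% and 4.74% of all genes; Egr3 was at 11.5 FPKM in PEK and 1.66 FPKM in SEK, and Ier3 at 39.5 and 12.9 FPKM, while Junb (55.8 and 53.0 FPKM) and Ier2 (193 and 188 FPKM) were not called. Heat shock genes had a median of 0.50 centred, with Hspa5, a chaperone of the endoplasmic reticulum, past 2-fold higher (180.3 and 423 FPKM). In the Notch list, 3 of 18 genes were higher and 1 lower at 2-fold, beside 4.74% and 4.55% of all genes. Hes5 was at 2.00 and 15.5 FPKM and Hes1 at 216 and 104 FPKM. Axon guidance genes had a median of -0.67 centred and -0.36 corrected over 35 genes, with Sema6a at 20.0 and 3.27 FPKM and Sema3c at 12.8 and 2.27 FPKM. Of the laminin genes of the basement membrane, Lama3 was past 2-fold lower (6.95 and 0.813 FPKM), and Lama5 was at 224 and 76.7 FPKM. Of 14 imprinted genes only Mest was called at 2-fold, higher in SEK (22.1 and 54.8 FPKM), beside 4.74% of all genes.

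The 4 Y-linked genes measured were all lower in SEK, among them Eif2s3y (41.9 and 18.1 FPKM), Uty (7.91 and 2.06 FPKM) and Ddx3y (5.42 and 2.60 FPKM). Of 10 listed genes of enamel and dentin, 8 were below 1 FPKM in both libraries; Odam was at 4.62 and 7.99 FPKM and Ambn at 0.727 and 5.63 FPKM. Lars2, at 7514 FPKM in PEK and 2368 FPKM in SEK, was among the 5 highest rows of PEK.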
